A study of Mus musculus with 2 samples.

Results

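The chromosome 5 block is the set of listed regions of histone H3 lysine 4 trimethylation (H3K4me3) that start between 94 and 96 Mb on chromosome 5 of the mouse mm9 assembly. It holds 323 of the 41561 regions in the deposited list, or 0.777%, and was chosen because listed regions are crowded there. H3K4me3 was measured by chromatin immunoprecipitation sequencing (ChIP-seq) in bone marrow of C57BL/6 mice, on cells labelled as LSK, the population without lineage markers and with Sca1 and KIT on its surface, in which blood stem cells and early progenitors are found. Magnetic beads were used to select the cells, for CD117 (KIT) first and for Sca1 second. The groups were wild-type mice (WT, 1 library) and heterozygous mice that carry a partial tandem duplication of the Mll gene as a knock-in (Mll-PTD, 1 library). The age and number of the mice are not given in the sources used here, and marker genes of LSK cells were not analysed here. Each genotype has 1 library, so no value below tests a difference between genotypes. Intervals of ratios are exact 95% intervals for the counting error of tags alone. Intervals of shares are exact 95% binomial intervals over numbers of regions, which treat regions as independent although some resemble each other, and they do not carry the counting error of tags.

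H3K4me3 marks the start sites of active genes and of genes held ready for activation. Mll, now called Kmt2a, encodes an enzyme that adds methyl groups to this lysine as part of a multi-protein complex, and it maintains the expression of Hox genes in blood progenitors. The partial tandem duplication repeats an internal stretch of the protein in frame and occurs in acute myeloid leukaemia. Heterozygous mice keep a normal copy of the gene.

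A tag is the position of an aligned read. There were 58083118 tags in the Mll-PTD library and, as worked out from the deposited scaling, 43579244 in the WT library, so Mll-PTD tags are given scaled to the WT library by a factor of 0.750. A region entered the list only if its scaled Mll-PTD tags exceeded its WT tags at least 4-fold. The list therefore holds no region higher in WT, and the ratios in the block describe regions that were chosen for a high ratio. The position of the block was chosen from the same list, so its ratios and counts are descriptions and no test was made on them.

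Regions in the block lay close together. The first Mb held 134 regions and the second 189, and chromosome 5 had a median of 13 in its other 1-Mb bins that held a region. The fullest of those other bins, which starts at 11 Mb, held 106. Of all 2581 1-Mb bins with a region on the autosomes, X and Y, the bin from 95 to 96 Mb ranked 5th by the number of regions and the bin from 94 to 95 Mb ranked 13th. The median gap between neighbouring regions was 3.46 kb (quartiles 1349 and 6350 bases), against 27.7 kb over the rest of chromosome 5. In 120 of the 322 gaps the neighbours were within 2000 bases of each other. The 323 regions covered 276 kb, which is 13.8% of the block.

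The crowding was uneven within the block. Of its 20 bins of 100 kb, 14 held at least 15 regions, and 9 of these lay in the second Mb. The fullest, from 95500000 to 95599999, held 26 regions, and the emptiest, from 94100000 to 94199999, held 3. There were 4 gaps of at least 50 kb, the widest 53.8 kb from 94130697 to 94184510.

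**Figure D1:**
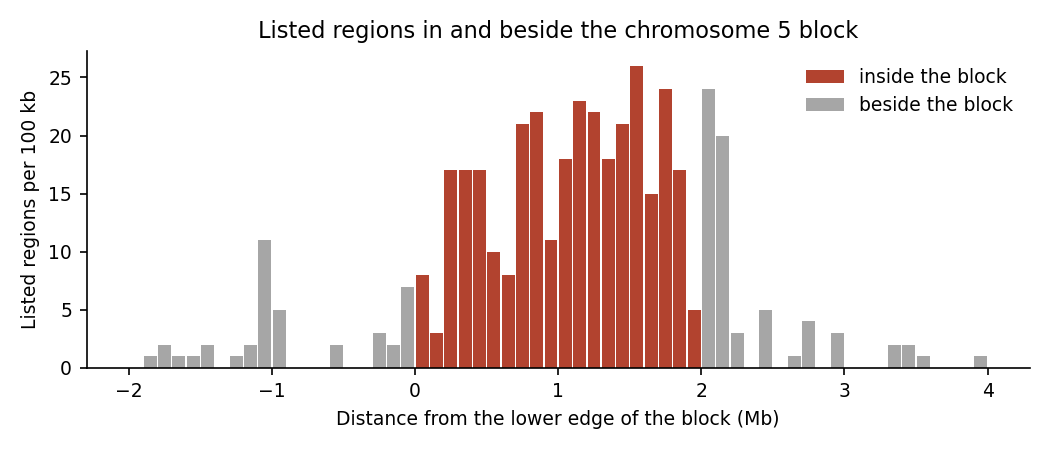
Listed regions per 100 kb (y axis) by distance from the lower edge of the block in Mb (x axis), with bins inside the block in red and beside it in grey. Bins inside the block hold 3 to 26 regions. The last bin inside holds 5, and past the upper edge follow bins of 24 and 20 regions.

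The lower edge of the block lay where few regions were listed, and the upper edge cut through a crowded stretch. The Mb before the block held 19 regions and the Mb after it 60. At the lower edge, the last region outside, from 93995146 to 93995646, had 24.8 scaled Mll-PTD tags and 0 WT tags. The first inside, from 94001908 to 94002408, had 22.5 and 0. At the upper edge, the last region inside, from 95996496 to 95996996, had 24.8 scaled Mll-PTD tags and 6 WT tags. The first outside, from 96002727 to 96003835, had 57.8 and 8. The 60 regions from 96 to 97 Mb had a summed ratio of 8.35 (7.40 to 9.44) and the 19 from 93 to 94 Mb one of 6.93 (5.63 to 8.60).

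Summed over the block, 13719 scaled Mll-PTD tags stood against 1434 WT tags. The ratio of these sums was 9.56 (9.06 to 10.1). Over the rest of chromosome 5 it was 7.56 (7.43 to 7.69), and over the rest of the list 7.69 (7.66 to 7.72), so the intervals do not overlap. Among the 263 regions of the block with a WT tag, the summed ratio was 8.16 (7.73 to 8.62), against 6.99 (6.96 to 7.02) for such regions in the rest of the list. The median ratio of these 263 regions was 8.14, with quartiles of 5.63 and 12.9, while the rest of the list had a median of 6.82 with quartiles of 5.1 and 10.5. The quartile ranges of single regions thus overlap widely. In the first Mb the summed ratio was 10.1 (9.21 to 11.1) and in the second 9.29 (8.70 to 9.94).

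The block differed from the rest of the list more in its WT tags than in its Mll-PTD tags. By region, the median of scaled Mll-PTD tags was 49.1 per kb in the block and 49.6 in the rest of the list. For WT the median was 4.69 tags per kb in the block and 6.36 in the rest of the list. Summed over all regions, both libraries were lower in the block. Mll-PTD had 49.7 scaled tags per kb against 58.6 in the rest of the list, and WT had 5.20 against 7.62. If all tags were even across the genome size set for the peak caller, 21.8 per kb would be seen in either library. The tags of all block regions together stood at 2.28 times that level in Mll-PTD and at 0.239 of it in WT. The 4-fold threshold sets part of this low WT level. The peak caller's tag threshold of 30 for a peak sets a floor under the Mll-PTD level, so the likeness of the Mll-PTD medians is partly fixed by it.

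**Figure D2:**
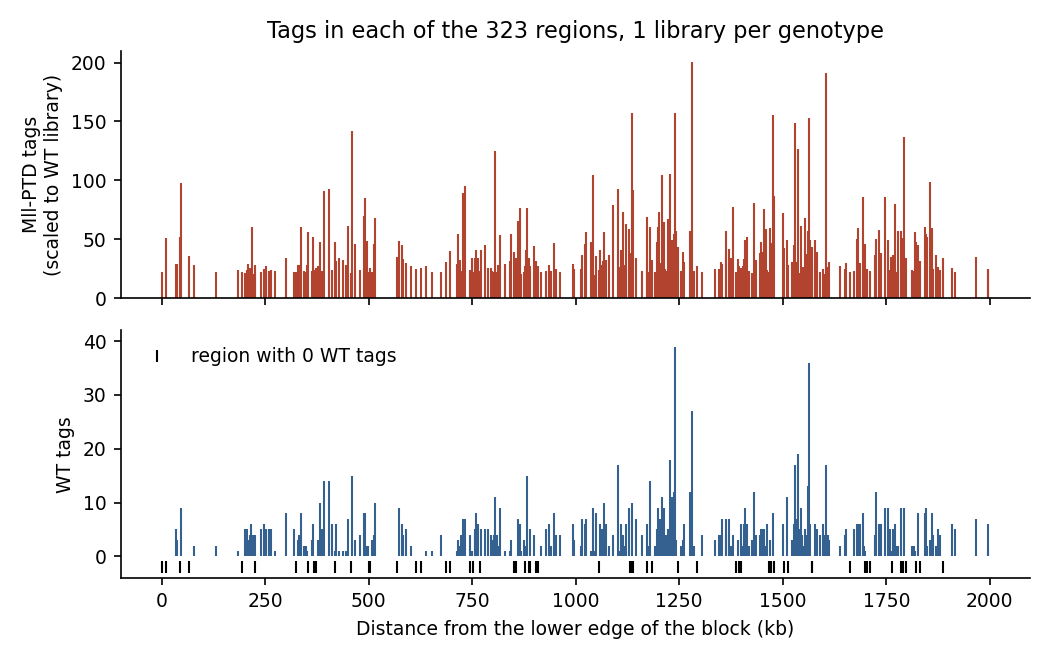
Scaled Mll-PTD tags (upper panel) and WT tags (lower panel) in each of the 323 regions, by distance from the lower edge of the block in kb, with black ticks under the regions that had 0 WT tags. The tallest lines of both panels stand in the second Mb, and regions with 0 WT tags are scattered over the whole block.

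A single region of the block held from 19.5 to 200.3 scaled Mll-PTD tags (median 31.5, quartiles 24.8 and 49.5) and from 0 to 39 WT tags (median 4, quartiles 1 and 6). With 4 WT tags the ratio of a typical region is poorly determined. WT tags numbered 1 to 3 in 90 regions, 4 to 9 in 147 and at least 10 in 26. By the authors' deposited fold, 195 regions of the block (60.4%, 54.8% to 65.7%) reached 8-fold, and 47.0% of all listed regions did. Such regions were about as common in 2 other crowded stretches. They made up 59.2% on chromosome 14 from 42 to 45 Mb and 60.1% on chromosome 7 from 21 to 24 Mb. The deposited fold sets 0 WT tags to 0.5, and if they are set at 3 WT tags instead, the share in the block was 57.0%. At the other end, 40 of the 323 regions had a deposited fold under 5, near the threshold of the list. That share was not computed for the rest of the list, so it cannot be called high or low.

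The median length of block regions was 638 bases (quartiles 500 and 987), against 500 (500 and 784) in the rest of the list. In the 2 other crowded stretches, on chromosome 14 from 42 to 45 Mb and on chromosome 7 from 21 to 24 Mb, the medians were 636 and 629 bases. The minimum length of 500 bases was met by 148 regions (45.8%), against 57.0% in the rest of the list. The block held 77 regions over 1000 bases (23.8%, against 17.9%). The longest regions went the other way. In the block 5 of 323 regions reached 3000 bases, a smaller share than the 1058 of 41238 in the rest of the list.

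The ratio was higher in the block than in the rest of the list in each of the 6 length classes compared. In regions of 500 bases the summed ratio was 8.92 (8.06 to 9.89) in the block and 7.67 (7.61 to 7.73) elsewhere. In regions of 751 to 1000 bases it was 10.8 (9.42 to 12.5) and 8.44 (8.33 to 8.55). In regions of 1001 to 1500 bases it was 10.2 (9.05 to 11.6) and 7.94 (7.84 to 8.04). In the class of 501 to 750 bases the intervals overlapped, with 9.80 (8.33 to 11.6) in the block and 8.60 (8.49 to 8.71) elsewhere. The 26 regions of 1501 to 2999 bases gave 8.51 (7.58 to 9.60), and the 5 longest 10.8 (8.58 to 13.7), against 7.35 and 7.09 elsewhere.

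**Figure D3:**
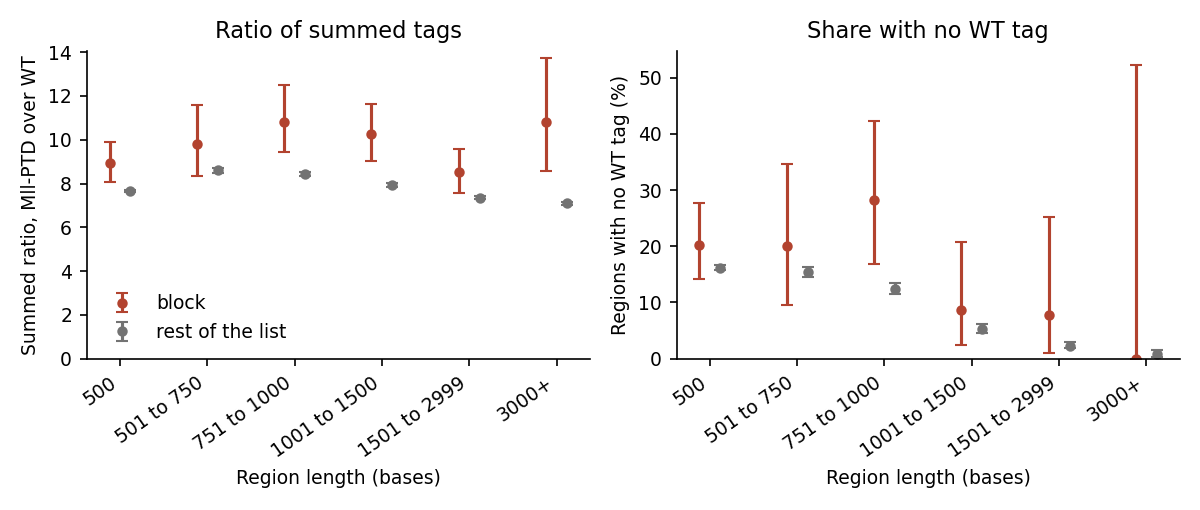
Ratio of summed tags (left) and share of regions with no WT tag in percent (right) by region length in bases, for the block (red) and the rest of the list (grey), with exact 95% intervals, over tags for the ratio and over regions for the share. The ratio of the block lies above that of the rest in each class, from 8.51 to 10.8, and the intervals of the shares overlap in every class but that of 751 to 1000 bases.

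No WT tag was found in 60 regions of the block (18.6%, 14.5% to 23.3%), and in 13.5% of all listed regions. Over the rest of chromosome 5 the share was 12.2% (10.9% to 13.6%). In regions of 751 to 1000 bases it was 15 of 53 in the block (28.3%, 16.8% to 42.3%), against 12.4% elsewhere (11.4% to 13.5%). In regions of 500 bases it was 20.3% (14.1% to 27.7%) against 16.2% (15.7% to 16.7%), within the interval of the block. Of the 77 regions over 1000 bases, 6 had no WT tag. In regions of 1001 to 1500 bases the share was 8.70% (2.42% to 20.8%), against 5.36% elsewhere. In those of 1501 to 2999 bases it was 7.69% (0.946% to 25.1%), against 2.33%. Both shares elsewhere lay within the interval of the block.

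Regions without a WT tag did not stand out by their Mll-PTD tags per kb. They held 19.5 to 91.5 scaled Mll-PTD tags with a median of 28.2, and a median of 48.1 tags per kb, against 49.4 in block regions with a WT tag. The 4-fold threshold asks for more Mll-PTD tags where there are more WT tags, so it partly sets this comparison. Regions without a WT tag did not form long runs along the chromosome. The 60 regions fell into 47 runs, of which 34 were single regions and 13 were 2 neighbours. A region that followed one without a WT tag lacked WT tags itself in 21.7% of 60 cases, and one that followed a region with a WT tag in 17.6% of 262. Over 322 neighbouring pairs of this one block, the log2 ratio with a pseudocount of 1 had a Pearson r of 0.14, a weak relation in sparse counts.

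Among regions whose larger tag count reached the median of the block, the 10 with the highest log2 ratio (pseudocount 1) all lacked WT tags. Their ratios are lower bounds that put the WT library at 3 tags. First was the region from 95137829 to 95139877, with 122 Mll-PTD tags, or 91.5 scaled tags, and 0 WT tags, at least 30.5-fold higher. Next came the region from 95478274 to 95480181, with 86.3 scaled tags against 0, at least 28.8-fold higher. The third, from 94354057 to 94355042, had 56.3 scaled tags against 0 and was at least 18.8-fold higher. The other 7 were at least 15.3-fold to 17.3-fold higher, and the 10 were 800 to 2048 bases long. The exact interval, which shares the error between both ends, put the lower limit of the first at 24.4.

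The 10 regions with the most tags were 2650 to 3914 bases long, and 9 of them lay in the second Mb. Together they held 11.4% of the Mll-PTD tags and 13.7% of the WT tags of the block. The region from 95278813 to 95282727 had the most, with 200.3 scaled Mll-PTD tags against 27 in WT and a ratio of 7.42 (4.99 to 11.5). The region from 95601906 to 95605205 followed, with 191.3 against 17 and a ratio of 11.3 (6.89 to 19.6). The lowest ratios of the 10 belonged to the regions from 95238697 to 95241440 and from 95561791 to 95564441. The former had 156.8 scaled Mll-PTD tags against 39 in WT, a ratio of 4.02 (2.85 to 5.82). The latter had 153.1 against 36, a ratio of 4.25 (2.97 to 6.24). These were also the highest WT counts in the block, and both ratios lay near the 4-fold threshold of the list.

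The highest ratios among these 10 regions were found in 3 that resembled each other. The region from 95474192 to 95477279 had 155.3 scaled Mll-PTD tags against 8 in WT, a ratio of 19.4 (9.67 to 45.6). The region from 95133934 to 95137033 had 156.8 against 10, a ratio of 15.7 (8.36 to 33.2). The region from 95791630 to 95794617 had 136.6 against 9, a ratio of 15.2 (7.82 to 33.7). Their lengths were 3087, 3099 and 2987 bases, and their intervals overlap one another.

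Several of these regions came in pairs at like distances. The 2 regions with the most tags started 323093 bases apart, and the 2 with the lowest ratios of the 10 started 323094 bases apart. The starts of the regions at 95133934 and 95474192 were 340258 bases apart, and those at 95474192 and 95791630 were 317438 bases apart. The 2 regions with the highest bounds, at 95137829 and 95478274, were 340445 bases apart. Both lacked WT tags, as did all 10 regions with the highest log2 ratio, so this is no sign of likeness. Lengths and scaled Mll-PTD tags were closer in some of these pairs than in others, and the 2 regions with the most tags differed in length (3914 and 3299 bases) and in WT tags (27 and 17). The 5 pairs named here are a choice from all pairs within each list of 10 regions. Of these 5 pairs, 1, at 317438 bases, belongs to a series found by the search described next, and the other 4 were placed in none. The pairs at 340258 and 340445 bases came near the 340.3 kb of another such series, but their regions lay outside the stretches that it joined.

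A search over the whole block for distances that recur gave 37 pairs of regions, which involved 61 of the 323 regions (18.9%). A pair was kept if at least 4 other regions within 20 kb of its first member had a partner at the same distance, within 100 bases. Where regions are this crowded, some pairs can meet that rule by position alone, and how many is not given here. The search used the midpoints of the regions alone, not their lengths or tags, but its limits were set after lengths and tags of such pairs had been seen. Pairs of one distance were then joined into a series where at least 3 lay in one stretch, and every region of the stretch was looked up at that distance within 250 bases. This gave 5 series with 36 pairs in all, over 63 regions.

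The longest series joined the stretch from 95406063 to 95477279 with the one from 95723263 to 95794617, at a median distance of 317.4 kb. Of the 19 regions in the former, 14 (73.7%) had a partner among the 20 in the latter. At the same distance, 32 of the 252 other regions of the block that had room for a partner had one (12.7%), but the stretch was chosen for its recurrence. The second series joined 8 of 11 regions from 95195878 to 95229168 with regions 330.2 kb further on. The other 3 series had median distances of 966.2, 635.1 and 340.3 kb, with 6, 5 and 3 pairs.

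**Figure D4:**
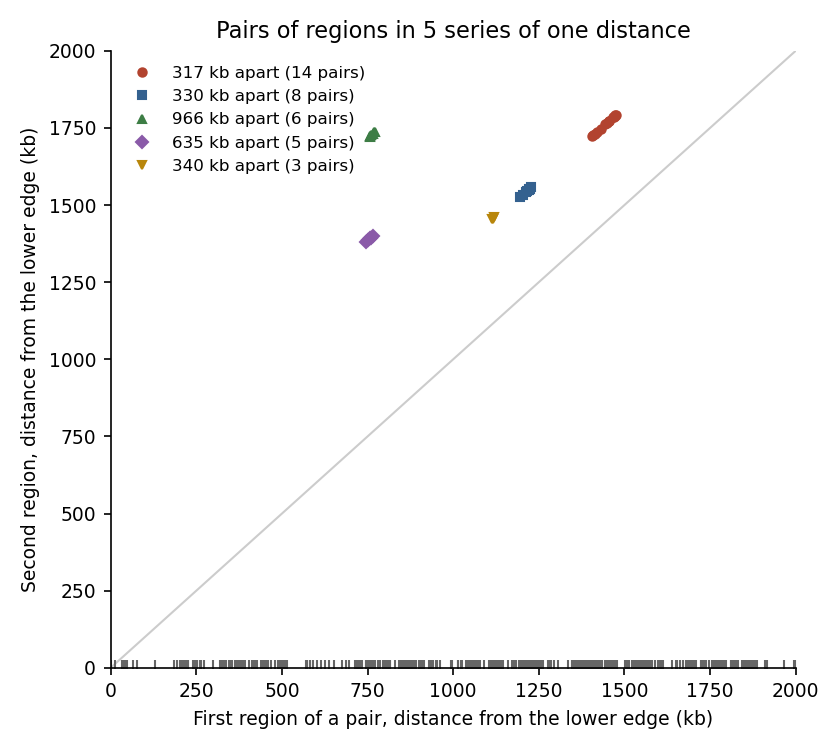
Midpoints of the first (x axis) and second region (y axis) of each of the 36 pairs, in kb from the lower edge of the block, with 1 colour and symbol per series, the diagonal in grey and all regions of the block as ticks at the bottom. Each series runs parallel to the diagonal, and the longest, of 14 pairs, lies 317.4 kb above it.

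In the longest series the paired regions resembled each other in length and in the tags of both libraries. From 95467190 to 95477279, 5 neighbours in a row had a partner. The region from 95467190 to 95467690 had 22.5 scaled Mll-PTD tags against 0 in WT, and its partner from 95784649 to 95785149 had 24 against 0. The region from 95470980 to 95471780 had 46.5 against 0, and its partner from 95788474 to 95789240 had 42.8 against 0. The region from 95472320 to 95473368 had 46.5 against 0, and its partner from 95789774 to 95790845 had 51 against 0. These 3 were the regions of the first stretch that lacked WT tags, and all 3 had a partner that lacked them too. In the other direction the match was not complete. The region from 95763315 to 95763815 in the second stretch had 25.5 against 0 and no partner in the series.

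Not all values were alike within these pairs. Between the first 2 of those matched regions lay the one from 95468483 to 95469648, with 59.3 scaled Mll-PTD tags against 3 in WT, whose partner from 95785939 to 95787019 had 57 against 9. The lengths of this pair, 1165 and 1080 bases, were close. At such low WT counts a difference of 3 against 9 tags moves the ratio 3-fold while the Mll-PTD tags hardly differ.

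In the second series WT counts were equal in 5 of the 8 pairs. The region from 95203261 to 95203761 had 30 scaled Mll-PTD tags against 7 in WT, and its partner from 95533431 to 95533931 had 30.8 against 7. The region from 95222590 to 95223755 had 67.5 against 5, and its partner from 95552658 to 95553780 had 68.3 against 5. The region from 95213064 to 95214479 had 64.5 against 9, and its partner from 95543202 to 95544399 had 61.5 against 9. The largest mismatch was the region from 95226970 to 95229168, with 105 against 18, whose partner from 95557968 to 95558660 was shorter and had 37.5 against 4.

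Over the 36 pairs, the lengths differed by a median factor of 1.06, the scaled Mll-PTD tags by 1.08 and the WT counts by a median of 1 tag. Over all 50831 pairs of block regions at least 20 kb apart, the medians were 1.51, 1.53 and 3 tags. As a description over 36 pairs, which share 2 libraries and in part the same regions, Pearson's r between paired regions was 0.76 for log2 length and 0.69 for the log2 ratio with a pseudocount of 1. Over all pairs these were 0.002 and -0.006. Among the 36 pairs, 9 joined 2 regions of the minimum length. Without them, the lengths of the other 27 differed by a median factor of 1.16, against 1.69 over all pairs of the block treated alike. For these 27 pairs r was 0.62 for log2 length and 0.66 for the log2 ratio, against -0.21 and -0.02 over all pairs treated alike.

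The resemblance differed between the series. In the series of 317.4 kb r was 0.93 for log2 length and 0.87 for the log2 ratio over 14 pairs, and in that of 330.2 kb it was 0.74 and 0.79 over 8 pairs. In the series of 966.2 kb it was 0.75 and 0.50 over 6 pairs, in that of 635.1 kb -0.50 and -0.08 over 5, and in that of 340.3 kb 0.992 and 0.997 over 3, and so few pairs fix no r. The 5 pairs of the 635.1 kb series were less alike, with lengths that differed by a median factor of 1.27, WT counts that differed by a median of 4 tags, and 3 pairs in which only 1 member lacked WT tags. The number of pairs depends on the limits. With 3 supporting pairs instead of 4 there were 239 pairs over 197 regions, and the lengths differed by a median factor of 1.38, nearer to the 1.51 of all pairs. With 5 there were 6 pairs over 12 regions and a factor of 1.02.

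**Figure D5:**
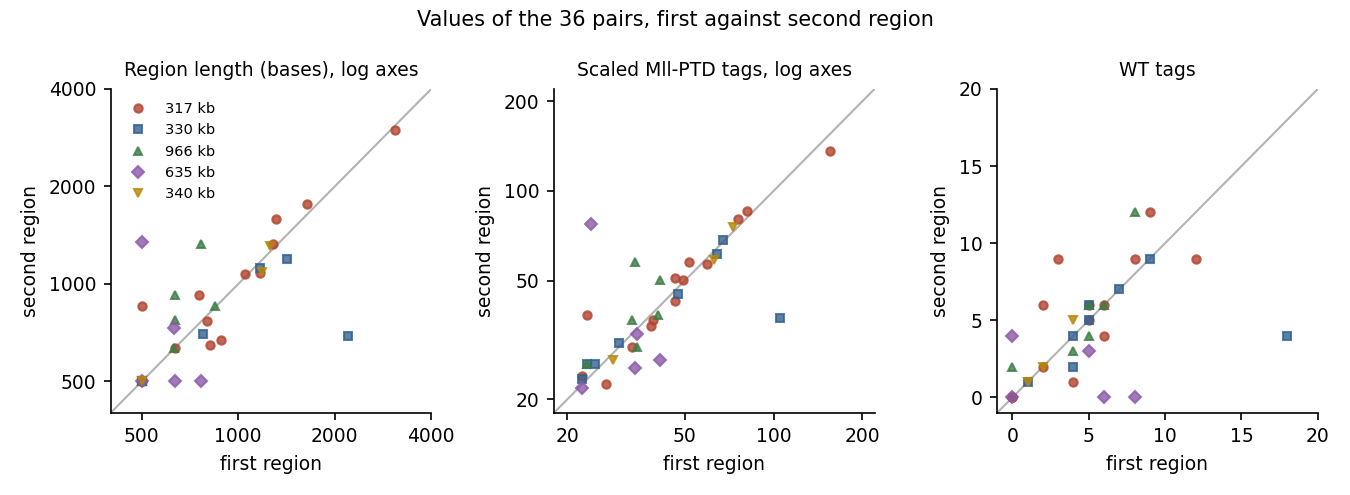
Length in bases, scaled Mll-PTD tags and WT tags of the first (x axis) and second region (y axis) of each of the 36 pairs, coloured by series, with the line of equal values in grey. Most pairs of the 317.4 kb and 330.2 kb series lie near the line in all 3 panels, while 3 of the 5 pairs of the 635.1 kb series have 0 WT tags in 1 member only.

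Recurring distances were not particular to this block. By the same search, the stretch on chromosome 7 had 77 pairs over 134 of its 486 regions (27.6%), with lengths that differed by a median factor of 1.01. The stretch on chromosome 14 had 134 pairs over 163 of 546 regions (29.9%), with a factor of 1.25. The summed ratio was 9.14 (8.75 to 9.54) on chromosome 7, an interval that overlaps that of the block, and 8.67 on chromosome 14, with an interval below that of the block. Regions without a WT tag made up 9.88% on chromosome 7 (7.37% to 12.9%) and 18.1% on chromosome 14, the latter close to the 18.6% of the block. With such regions left out, median ratios were 8.625 on chromosome 7 and 8 on chromosome 14, against 8.14 in the block. Median WT tags per kb over all regions were 5.57 and 5.47, between the 4.69 of the block and the 6.36 of the rest of the list.

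Peaks in the block were mostly low, and the piling of tags was close to that in the rest of the list. The score that the authors' peak caller gave to the tallest peak of a region had a median of 33 in the block and in the rest of the list. Scores of at least 40 were found in 36 block regions (11.1%), against 17.8% in the rest of the list. The highest score, 55, belonged to the region from 94381525 to 94382280, which had 48 scaled Mll-PTD tags against 10 in WT and a ratio of 4.80 (2.45 to 10.5). The second, 54, belonged to the region from 95407930 to 95408684, with 49.5 against 9. The clonal fold, the caller's score for tags that pile up on the same positions, lay between 0.57 and 0.98 in the block, with a median of 0.74 against 0.73 in the rest of the list, where it reached 1.98. The caller considered at most 2 tags per base and removed 37 putative peaks as too clonal. A low clonal fold in listed regions is therefore partly set by these limits.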

How the data were processed

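The authors deposited 1 list of regions made with the HOMER peak finder in histone style, with the Mll-PTD tags as the sample and the WT tags in place of an input, per the file headers. Peaks of 500 bases were joined into regions, with a false discovery rate of 0.001 and a tag threshold of 30 for a peak. The limits against WT were a fold of 4 and a Poisson p-value of 0.0001, per the file headers. Bowtie 0.12.7, HOMER 4.7 and mm9 are named in the submitters' processing notes. How reads that align to several places were treated is not given in the sources used here.

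Of the deposited signal columns, the Mll-PTD ones are per 10000000 tags and scaled to the WT library, and the one for WT is unscaled, with 0.5 for 0. The p-value, the scores for peak height and clonal fold, and the fold behind the 8-fold and 5-fold counts are the authors' deposited values. All printed ratios were computed here from the tags. Dividing scaled tags by 0.750 gave whole tags within 0.1 for 100% of regions. Those counts gave the exact Clopper-Pearson 95% intervals of ratios. Since tags within a library need not be separate molecules, these and the bounds speak of counting error alone. Intervals of shares are Clopper-Pearson intervals over numbers of regions, taken as independent. Bounds set 0 WT tags at 3.

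The labels gave the genotype of each library. The members and all lists were chosen with earlier results of these data known. Named regions are the 10 with the most tags, the 10 with the highest log2 ratio (pseudocount 1) among those at or above the median tag count of the block, the 5 longest, the 5 with the highest score and the first and last. The search for recurring distances was added after seeing the data. On simulated data, the intervals were checked for holding a set ratio, and that search for finding a copied stretch again. The simulated places were drawn evenly, unlike those of the block, and no limit was set on false pairs. Gene positions and sequences in mm9 were not used here. The tools were scipy 1.17.1, numpy 2.4.6, matplotlib 3.10.9 and pandas 2.3.3 under Python 3.11.15.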

Additional observations from a re-analysis of the deposited data

How the results depend on the processing

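Of 36 alternatives for the values of the block, 24 stayed within the 95% interval of the value, or within 1.5 times for a count. Some of these 24 could not have moved and say nothing about stability. Leaving out the 10 regions with the most tags had to give a count of 313. A limit on the deposited p-value lay above every value in the block, so all 323 regions stayed. Merging neighbouring regions adds up the same tags, so the summed ratio stayed at 9.56. The median log2 ratio, 2.99 as reported, was 3.16 at a pseudocount of 0.5, 2.23 at 5 and 2.77 without regions that had no WT tag, and the 4-fold threshold fixes its sign. The summed ratio of 9.56 was 8.92 in regions of 500 bases, 8.16 without regions that had no WT tag and 10.1 in the first Mb alone. At or above the median tag count of the list, 184 of the 323 regions were left, with a median length of 927.5 bases in place of 638. The 61 regions in recurring pairs became 197 with 3 supporting pairs, 12 with 5, 184 within 200 bases and 12 within 50 bases. The alternatives that leave out regions without a WT tag, split the block by Mb or change the search for pairs were chosen after seeing the data. No paired analysis was possible because there is only 1 library of each genotype. Depth limits what a single region shows, since the median WT count was 4.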
